A study of Mus musculus with 2 samples.

Results

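The 500 densest clusters of distal DNase-seq peaks in the library labelled replicate 1 of mouse gastrocnemius, a calf muscle of the hindlimb, are described here, with the genes in or nearest to them and the peaks of replicate 2 in the same places. DNase-seq finds open chromatin as short stretches of DNA that the enzyme DNase I cuts, and a peak is such a stretch. To choose the clusters, overlapping peaks of the stricter replicate 1 list were joined and peaks within 1 kb of the transcription start site (TSS) of a protein-coding gene were dropped. The remaining distal peaks less than 5 kb apart, edge to edge, were stitched. The clusters were thus chosen by values of replicate 1, the number of peaks and, for ties, the summed peak height. The 500 stitched clusters with the most peaks were kept of 55191 in all, most of which hold a single peak, and they contain 4126 of 84568 distal peaks (4.88%).

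The series has 1 group with 2 libraries, labelled biological replicates 1 and 2, and no other condition, treatment or tissue. Both came from female B6CASTF1/J mice, the first-generation cross of C57BL/6J and CAST/EiJ, aged 10 days, and the labels give 3 females for each library. With 1 library to each replicate number no value below has a replicate error, and no test between groups can be made. In bulk tissue, fewer cells of a type and less open chromatin per cell cannot be told apart.

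Distal DNase-hypersensitive sites are mostly enhancers, insulators and other control elements that transcription factors keep free of nucleosomes. Several such sites often lie side by side, as in locus control regions and super-enhancers, and in many tissues these clusters lie around the genes that define the cell type: transcription factors, structural genes and the microRNA genes of the lineage. In skeletal muscle the genes of this kind include the myogenic regulators of the MyoD and Mef2 families and the sarcomere genes. In neurons they include bHLH, POU, Pax and Zic transcription factors and the genes of miR-9 and miR-124.

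The stricter list held 114758 peaks in replicate 1 and 26804 in replicate 2, so the libraries were not equally deep in peaks. The tissue label was checked at promoters, where a peak lay within 1 kb of a TSS for 66.7% of all protein-coding genes in replicate 1 and for 51.4% in replicate 2. Of 110 genes in 6 muscle lists, 68 (61.8%) had a promoter peak in replicate 1 and 50 (45.5%) in replicate 2. With only the 26804 tallest peaks of replicate 1, as many as replicate 2 has, it was 37 (33.6%). Over all protein-coding genes that last share was 49.6%. Of 82 genes in 5 neural lists, 74 (90.2%) had one in replicate 1 and 28 (34.1%) in replicate 2. With the tallest peaks it was 44 (53.7%), near the 49.6% of all genes. The cerebellar granule cell list had it at 20 of 20 genes in replicate 1 (17 with the tallest peaks) and at 8 in replicate 2. With the tallest peaks the other neural lists went both ways. Neuron genes had 12 of 15 and neural transcription factors 13 of 20, but astrocyte genes 5 of 15 and oligodendrocyte genes 0 of 15. Housekeeping and circadian genes had 15 of 15 each in replicate 1 and 14 each in replicate 2. The lists were chosen with earlier results of these data known. Among defining muscle genes, Ckm, which encodes creatine kinase of muscle, carried one in both libraries, of height 2.63 in replicate 1 and 3.46 in replicate 2. Acta1 (skeletal actin) and Pax7 (the satellite cell factor) had one in replicate 2 and none in replicate 1, Myod1 had one in replicate 1 and none in replicate 2, and Des, Myog, Myh4 and Tnnt3 had none in either. The promoter peaks of replicate 1 thus go in part against its tissue label, at the granule cell, neuron and neural transcription factor lists. With the tallest peaks the astrocyte and oligodendrocyte lists lay below the share of all genes. The share of the muscle lists, however, lay below that of all genes in both libraries. Whether that library holds open chromatin of another tissue, and what part this has in the cluster results below, was not tested.

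The sequences below are examples of DNA from the clusters. The first set is the tallest peak overlapped by a replicate 2 peak, among peaks outside untranslated regions of genes, in each of the 5 highest-ranked clusters, as the reference genome (mm10, GRCm38, plus strand) has it. The reference is C57BL/6J, while the animals carry a CAST/EiJ copy as well. Peaks overlapped by replicate 2 are 12.7% of cluster peaks, so this set is not typical of the clusters. The overlapped peaks hold GGGCGG in 21.9% against 11.8% of the rest, and TTGGCA in 8.56% against 20.8%. Capitals mark a match to any of 24 searched motifs, and the Ppara peak is shown by its central 300 bases. The places are chr11:118379721-118379920 for the Timp2 cluster, chr17:27291741-27291940 for Lemd2, chr2:167294321-167294580 for B4galt5, chr10:81416941-81417200 for Nfic and chr15:85670491-85670790 for Ppara. The Nfic peak lies in an intron and the other 4 between genes.
Timp2: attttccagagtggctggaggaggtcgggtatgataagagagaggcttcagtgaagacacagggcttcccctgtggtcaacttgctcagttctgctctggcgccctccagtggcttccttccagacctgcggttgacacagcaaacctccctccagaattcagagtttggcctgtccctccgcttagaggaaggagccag
Lemd2: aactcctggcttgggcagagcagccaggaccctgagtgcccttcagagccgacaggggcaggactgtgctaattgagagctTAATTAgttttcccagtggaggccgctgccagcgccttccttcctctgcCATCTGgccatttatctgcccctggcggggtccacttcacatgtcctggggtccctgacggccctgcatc
B4galt5: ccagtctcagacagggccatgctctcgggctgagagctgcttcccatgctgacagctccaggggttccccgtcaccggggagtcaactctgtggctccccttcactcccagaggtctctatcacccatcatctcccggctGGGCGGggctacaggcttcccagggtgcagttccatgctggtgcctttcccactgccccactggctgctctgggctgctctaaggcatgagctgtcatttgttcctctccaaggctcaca
Nfic: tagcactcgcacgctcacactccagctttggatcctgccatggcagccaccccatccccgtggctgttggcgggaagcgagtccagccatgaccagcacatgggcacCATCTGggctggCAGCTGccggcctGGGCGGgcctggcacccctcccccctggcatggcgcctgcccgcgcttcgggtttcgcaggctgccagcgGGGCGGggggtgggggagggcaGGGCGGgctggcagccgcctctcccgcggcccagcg
Ppara: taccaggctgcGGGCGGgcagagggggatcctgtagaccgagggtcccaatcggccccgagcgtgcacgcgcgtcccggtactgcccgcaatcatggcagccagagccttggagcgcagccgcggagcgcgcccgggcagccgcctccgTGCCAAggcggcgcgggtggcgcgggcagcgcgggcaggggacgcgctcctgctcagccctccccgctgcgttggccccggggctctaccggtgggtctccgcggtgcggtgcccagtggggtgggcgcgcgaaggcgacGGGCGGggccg
The Nfic peak, with a GC content of 73.5%, carries GGGCGG, the core letters read by Sp and Klf factors, at 3 places, and the E-box letters CATCTG and CAGCTG side by side. The Lemd2 peak carries the homeodomain letters TAATTA and a CATCTG E-box. The Timp2 peak has none of the 24 motifs. The B4galt5 peak had a height of 0.370 in replicate 1 and 0.418 in replicate 2, and the Nfic peak 14.7 and 2.12. A taller shared B4galt5 peak, of height 2.06 in replicate 1, lies in an untranslated region and is not printed.

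A second set, chosen after the values were seen, shows the tallest distal peak of clusters at neural and muscle genes that replicate 2 did not overlap. It also shows the tallest shared peak of the cluster nearest the TSS of Scx, the tendon transcription factor. They lie at chr9:91355721-91355960 (Zic4), chr11:98320521-98320680 (Neurod2), chr11:118751061-118751280 (Rbfox3), chr13:83715061-83715280 (Mef2c), chr10:127509621-127509840 (Stac3) and chr15:76461281-76461480 (Scx, in an intron of Bop1). Letters and capitals are as above.
Zic4: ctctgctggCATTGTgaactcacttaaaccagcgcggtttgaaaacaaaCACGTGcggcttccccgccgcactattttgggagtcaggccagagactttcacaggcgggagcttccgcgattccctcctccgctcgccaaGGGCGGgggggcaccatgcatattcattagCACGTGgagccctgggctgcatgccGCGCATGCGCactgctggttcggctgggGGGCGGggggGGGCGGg
Neurod2: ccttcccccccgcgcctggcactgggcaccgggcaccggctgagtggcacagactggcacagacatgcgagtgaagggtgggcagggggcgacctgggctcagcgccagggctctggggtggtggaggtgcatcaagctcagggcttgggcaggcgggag
Rbfox3: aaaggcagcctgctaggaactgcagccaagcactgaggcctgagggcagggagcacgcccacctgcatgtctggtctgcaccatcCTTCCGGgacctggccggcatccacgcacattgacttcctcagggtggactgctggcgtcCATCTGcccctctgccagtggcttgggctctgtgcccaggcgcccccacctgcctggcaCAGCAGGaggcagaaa
Mef2c: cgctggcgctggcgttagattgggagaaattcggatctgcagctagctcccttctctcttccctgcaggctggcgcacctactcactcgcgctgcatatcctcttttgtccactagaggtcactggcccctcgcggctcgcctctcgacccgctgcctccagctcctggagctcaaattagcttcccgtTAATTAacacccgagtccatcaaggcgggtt
Stac3: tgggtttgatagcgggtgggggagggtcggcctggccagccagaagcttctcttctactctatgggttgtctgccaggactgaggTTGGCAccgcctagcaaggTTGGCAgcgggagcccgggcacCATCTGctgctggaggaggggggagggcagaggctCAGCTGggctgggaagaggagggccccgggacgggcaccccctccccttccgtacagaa
Scx: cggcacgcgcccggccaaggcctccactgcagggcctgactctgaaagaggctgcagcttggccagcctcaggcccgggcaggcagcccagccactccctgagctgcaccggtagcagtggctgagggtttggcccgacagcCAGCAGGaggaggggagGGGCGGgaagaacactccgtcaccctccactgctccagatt
The Zic4 peak has 2 CACGTG E-boxes, 3 GGGCGG matches and the full Nrf1 palindrome. The Stac3 peak has 2 copies of TTGGCA, the core site of nuclear factor I, followed by CATCTG and CAGCTG E-boxes. The Neurod2 peak, as tall as the Zic4 peak (15.7 against 15.6 in replicate 1), has no match to any of the 24 motifs.

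MicroRNA genes form the third set. Their mature sequences, from RefSeq (GRCm38.p6), are given with the seed, bases 2 to 8, in capitals. The gene copies are Mir9-1 at chr3:88215613-88215635, Mir9-2 at chr13:83738821-83738843 and Mir9-3 at chr7:79505279-79505301, with Mirlet7c-2 at chr15:85706616-85706637 and Mirlet7b at chr15:85707325-85707346. Those at Zswim4 are Mir23a at chr8:84208563-84208583, Mir27a at chr8:84208727-84208747 and Mir24-2 at chr8:84208875-84208896, and all lie on the plus strand.
miR-9-5p: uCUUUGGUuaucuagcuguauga
let-7b-5p: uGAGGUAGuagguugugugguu
let-7c-5p: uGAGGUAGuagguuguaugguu
miR-23a-3p: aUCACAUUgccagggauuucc
miR-27a-3p: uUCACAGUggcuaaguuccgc
miR-24-3p: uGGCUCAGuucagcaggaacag
The 3 genes of miR-9, a microRNA of neural progenitors and neurons, encode the same mature strand, and let-7b and let-7c share a seed. miR-23a, miR-27a and miR-24, which one transcript carries, each have a seed of their own.

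The clusters were long, closely packed runs of peaks. Peak number and height in replicate 1 chose them, so these values describe the choice. They held 6 to 39 peaks (median 7) over 2.04 to 33.0 kb (median 9.91 kb), and together covered 5.42 Mb, 0.199% of the 21 chromosomes. Neighbouring peaks within a cluster lay a median of 650.5 bp apart, against 1072 bp in the other clusters of more than 1 peak. The median peak was 194 bp wide with a height of 1.53, against 177 bp and 1.00 for other distal peaks. All 339 clusters of at least 7 peaks were kept, and 161 of the 294 clusters of 6 peaks were kept by summed height. The last kept were nearest to or in Rnd2 (summed height 11.8), Prkca (11.6) and Olfm4 (11.6), and the first left out were at Slc39a11 (11.5), Prdm8 (11.5) and Pitpnc1 (11.4).

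Clusters lay in or close to genes. Of the 500, 308 (61.6%) overlapped a protein-coding gene, against 48.8% of the clusters not kept, and the other 192 lay a median of 30.3 kb from the nearest TSS, against 63.4 kb. Kept clusters have longer spans, and clusters of equal span were not compared. By its midpoint 10.8% of their peaks lay in an exon of a protein-coding gene, 38.4% in an intron and 50.9% between such genes, against 5.94%, 42.4% and 51.7% of other distal peaks. The span of 84 clusters (16.8%) also held a promoter peak, against 2.04% of the shorter clusters of at least 2 peaks that were not kept. A TSS of a gene that codes for no protein lay in 116 (23.2%), against 6.84%. In 144 of 500 clusters (28.8%) another cluster lay within 100 kb. Chromosome 11 had 64 clusters, 12.8% of them against 7.01% of distal peaks, while chromosome 3 had 1.8% against 4.87% and chromosome 16 had 1% against 3.41%. A single cluster lay on the Y chromosome, although the labels give females: it ranked 24, at chrY:90718581-90744680 with Gm21860 the nearest gene, and held 16 of the 25 distal peaks on Y and 1 replicate 2 peak of height 8.03. The place is at the end of the Y sequence, beside the pseudoautosomal region, which the X chromosome carries as well.

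The cluster with the most peaks lay 4783 bp from Timp2, an inhibitor of matrix metalloproteinases. It had 39 peaks in 21.3 kb, of height 0.0955 to 4.90 with a median of 0.203, and 2 peaks of replicate 2, of height 1.58 and 2.04. Here and below, counts of replicate 2 peaks in a cluster span include its promoter peaks, while the replicate 1 counts leave promoter peaks out. The next had 30 peaks each. One lay outside genes, with the TSS of Lemd2, an inner nuclear membrane gene, the nearest at 83662 bp. The other lay in B4galt5, a galactosyltransferase of glycolipid synthesis. Most peaks of the Timp2 and B4galt5 clusters were low, since the B4galt5 median was 0.254 against 1.53 over all cluster peaks.

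Nfic, a nuclear factor I gene, had 25 peaks of height 0.292 to 14.7 in replicate 1 and 16 of height 0.675 to 4.02 in replicate 2. The 16 include promoter peaks, while 5 promoter peaks of replicate 1 in the span are not among the 25. Kdm6b, a demethylase of histone H3 lysine 27, had 20 peaks up to 14.1 and 11 of replicate 2 up to 3.60. The cluster nearest Ppara, a nuclear receptor of fatty acid oxidation, overlaps the noncoding RNA Lncppara and had 25 peaks and 1 in replicate 2. Uncx, a homeobox gene, had 22 and 1, and Soga1 had 23 and 0. Nptx1, a synaptic pentraxin, and Apba2, a neuronal adaptor of amyloid precursor protein, had 21 each in replicate 1 and 0 in replicate 2. Tns1, the focal adhesion protein tensin, had 21 low peaks (median 0.191) and 14 in replicate 2 (median 0.450).

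The cluster whose nearest TSS is that of Olfr1324, an odorant receptor gene, lies in Firre, a long noncoding RNA of the X chromosome. It had 19 peaks of height 1.21 to 6.21 in replicate 1 and 7 of height 1.43 to 4.17 in replicate 2, and a second cluster in Firre ranked 237. Tnrc18 had 17 peaks and 15 in replicate 2. Pou3f3, a POU factor of the developing brain, Zbtb18, a zinc finger repressor, and Apc2 had 17, 17 and 16 peaks and 0 in replicate 2. Abca2, a lipid transporter, and Ahdc1 had 17 each, with 1 and 2 replicate 2 peaks in the span. Cntnap1, a protein of the paranodal junction of myelinated axons, had 16 and 3, and Hip1r, a clathrin adaptor, 16 and 2. The cluster nearest Neurl1b, a ubiquitin ligase with its TSS 41309 bp away, had 19 and 5. In the first 25, then, replicate 2 had between 0 and 19 peaks in spans of 7.01 to 32.6 kb.

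**Figure D1:**
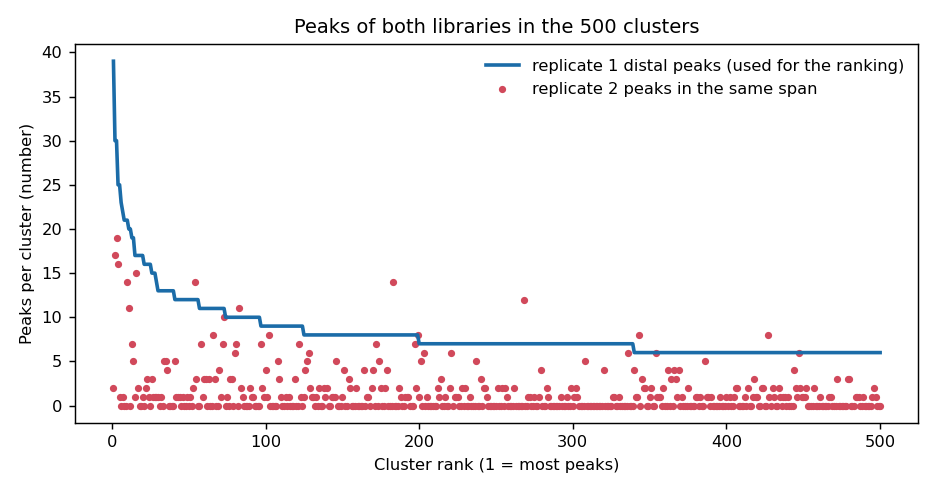
Number of distal peaks of replicate 1 (blue line) and of replicate 2 peaks in the same span (red points) for each of the 500 clusters, ordered by rank on the horizontal axis. The replicate 2 numbers include promoter peaks. The blue line falls from 39 to 6 by construction of the ranking, and replicate 2 ranges from 0 peaks, in 267 clusters, to 19.

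MicroRNA genes lay inside 17 of the 500 clusters (3.4%), which held 27 of them, 4.98 per Mb of span against 1.56 per Mb in the clusters not kept. Mir9-1 (in the cluster at Rhbg, an ammonium transporter gene) and Mir9-2 (in the cluster nearest Mef2c) had 9 replicate 1 peaks each within 10 kb and 0 in replicate 2. Mir9-3 lay 0.263 kb outside the cluster at Polg and had 10 and 1. Mir124a-1 (cluster nearest Kif13b, a kinesin gene, rank 12) had 20 and 0, and Mir124a-3 (cluster nearest Ythdf1) had 8 and 0. Mir124a-2, the remaining copy of this neuronal microRNA, lay 828 kb from the nearest cluster, yet had 6 peaks within 10 kb in replicate 1 and 0 in replicate 2. The let-7b and let-7c-2 pair, in a second cluster nearest Ppara (rank 29), had 15 and 2, and Mir23a and Mir27a, in the cluster at Zswim4, had 6 and 5. So the 6 genes of miR-9 and miR-124 had 6 to 20 peaks in replicate 1 and 0 or 1 in replicate 2, while those at Zswim4 had nearly equal numbers in both. These microRNA genes were chosen after their values were seen.

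Replicate 2 had peaks in fewer than 50% of the clusters, and few of the single peaks were shared. At least 1 replicate 2 peak lay in the span of 233 of 500 clusters (46.6%, Wilson 95% interval 42.3 to 51.0), while over all stitched clusters, most of them a single peak, the share was 11.5%. In the next 500 clusters by rank it was 35.6%. These shares count promoter peaks of replicate 2 as well. With its distal peaks alone, 222 of the 500 clusters (44.4%, 40.1 to 48.8) had one, and a like share for other clusters is not given. Of the 4126 cluster peaks 526 (12.7%, 11.8 to 13.8) were overlapped by a replicate 2 peak by at least 1 bp. Over all distal peaks the share was 8.51%, and over other distal peaks 8.30%. Promoter peaks, which are not in the clusters, were overlapped at 48.3%. All intervals cover counting error only, and peaks of 1 cluster are not independent.

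Peak height, which the rule used for ties, moves with these shares. When other distal peaks were weighted to the height mix of the cluster peaks, 12.6% of them were overlapped, against 12.7%. By height class the order differed. Among peaks in the tallest 10% of all distal peaks, 28.4% of cluster peaks and 32.3% of other peaks were overlapped, and between the 75th and 90th percentile 13.4% and 18.6%. In the lowest 25% it was 11.2% of 632 cluster peaks against 1.40% of other peaks, with intervals that did not overlap. Of the 71 low overlapped peaks 43 belonged to 4 clusters: B4galt5 with 16, Tns1 with 11, Lemd2 with 9 and Zfp36l2, an mRNA decay factor, with 7. Without these 4 clusters the share was 4.98% (3.47 to 7.11).

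**Figure D2:**
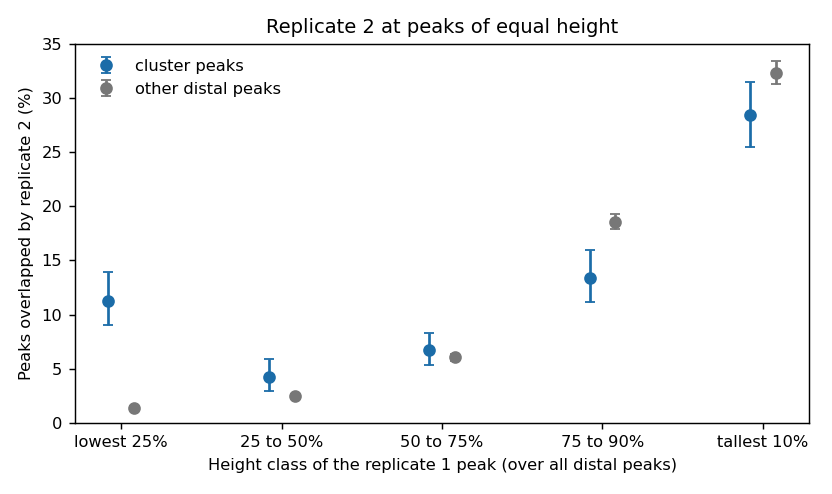
Share of replicate 1 peaks overlapped by a replicate 2 peak (vertical axis, %) in 5 classes of replicate 1 height, for cluster peaks (blue) and other distal peaks (grey), with Wilson 95% intervals for counting error. Cluster peaks lie above the others in the lowest class (11.2% against 1.40%) and below them in the class of 75 to 90% (13.4% against 18.6%).

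Sharing was uneven between clusters. In 286 of 500 no peak was overlapped, in 103 it was 1 and in 111 at least 2. In 46 clusters (9.2%) at least 50% of the peaks were overlapped, and in 1 all 6 were. Its nearest TSS was that of Kcnrg, 73579 bp away. The 10 clusters with the most overlapped peaks held 100 of the 526, and without them 10.8% of cluster peaks were overlapped. By number of replicate 2 peaks in the span the first clusters were B4galt5 with 19, Lemd2 with 17, Nfic with 16, Tnrc18 with 15, and Tns1, Otx1 (a homeobox gene) and a second cluster near B4galt5 with 14 each. These numbers include promoter peaks of replicate 2. Irs1, the insulin receptor substrate, had 12, against 7 distal and 3 promoter peaks in replicate 1, and Kdm6b and Mxra7 had 11 each.

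These shared clusters were of unequal height. The replicate 2 medians given here include promoter peaks in the span, and those of replicate 1 do not. In the Tnrc18, Nfic and Kdm6b clusters the median replicate 2 height was 1.46, 1.34 and 1.75, near the 1.48 median of all replicate 2 peaks. At B4galt5, Tns1 and Lemd2 it was 0.354, 0.450 and 0.418, and the heights of replicate 1 there were as low, with medians of 0.254, 0.191 and 0.632. The tallest peak of any cluster lay in an intron of Mid1 on X, a midline ubiquitin ligase, with a height of 58.2 in replicate 1 and 4.28 in replicate 2. Over all overlapped cluster peaks the median height was 3.32 in replicate 1, against 1.40 for those not overlapped.

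**Figure D3:**
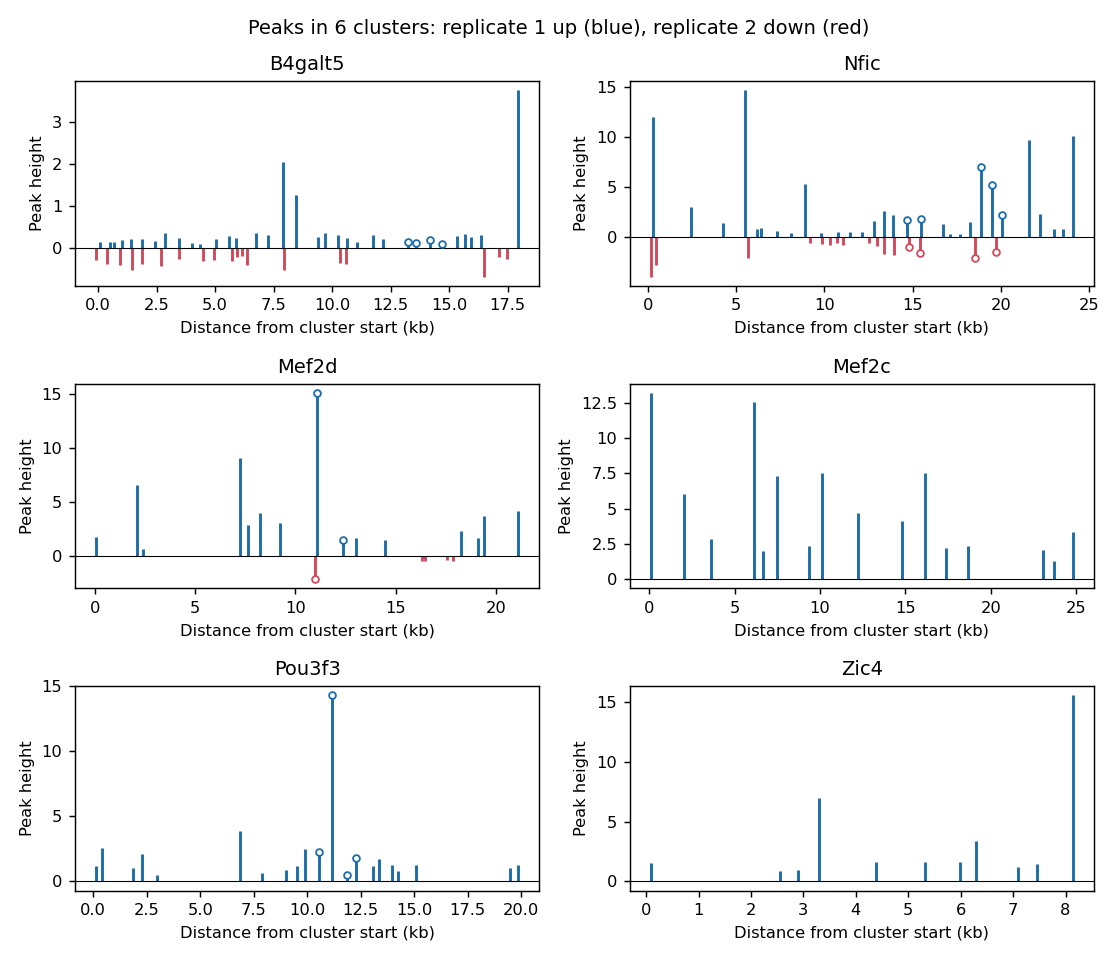
Peaks in the highest-ranked cluster at each of 6 genes, as lines at their distance from the cluster start (kb), with replicate 1 height upward in blue and replicate 2 height downward in red. Open circles are promoter peaks, which the clusters leave out. With its promoter peaks, replicate 2 has 19 peaks at B4galt5, 16 at Nfic, 5 at Mef2d and 0 at Mef2c, Pou3f3 and Zic4.

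Clusters were also set side by side by their number of distal replicate 2 peaks. The peaks of the 34 clusters with at least 5 such peaks carried the nuclear factor I letters TTGGCA in 10.2%, against 22.5% for the 278 clusters with none, and the E-box CAGATG, read by neural and other bHLH factors, in 13.9% against 24.6%. Mean CpG number in the central 150 bp was 5.51 against 3.73. A promoter peak of replicate 1 lay in the span of 10 of the 34 (29.4%) and 47 of the 278 (16.9%). The groups were formed from the replicate 2 readout, so these are descriptions without a test.

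Built from replicate 2 by the same rule, 500 clusters had 2 to 25 peaks, and 85 of the 500 replicate 1 clusters (17%) overlapped one of them (90 of 500 in the other direction, 18%). Among those with overlapping spans were clusters at Nfic, Tnrc18, Kdm6b, Otx1, Meis1, Mef2d, Nfix and Firre. Overlapping spans need not share peaks: replicate 2 overlapped 0 of the 13 cluster peaks at Mef2d and 0 of the 10 at Nfix.

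Genes of neural lists had clusters more often than genes of muscle lists. A gene counted as having a cluster when a cluster overlapped it or was nearest to its TSS, which held for 2.38% of the 21911 protein-coding genes. In 5 neural lists together it held for 16 of 82 genes (19.5%), and in 6 muscle lists for 4 of 110 (3.64%). With clusters built from replicate 2, where the share over all genes was 2.2%, the counts were 5 of 82 (6.10%) and 10 of 110 (9.09%). Genes with a cluster were long, with a median of 34.6 kb against 17.4 kb over all genes, and in 4 equal classes of gene length the share was 1.19%, 1.81%, 2.28% and 4.24%. The median length was 16.9 kb in the neural lists and 21.3 kb in the muscle lists, and genes of equal length were not compared.

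The cerebellar granule cell list had 9 of 20 genes with a cluster, and 4 of 20 with clusters built from replicate 2. Like the other lists it was chosen with earlier results of these data known, so its counts are descriptions. Zic4, a zinc finger factor of granule cells, had 2 clusters with 17 peaks up to a height of 15.6 and 0 in replicate 2. Meis1, a homeobox gene, had 3 clusters with 28 peaks, of which replicate 2 overlapped 4. Pax6, the paired-box factor of neural progenitors, had 11 peaks up to 4.36, and Cbln1, a synapse organizer secreted by granule cells, had 10 up to 1.86. Both had 0 in replicate 2. Nfix, a nuclear factor I gene on both the granule cell and the myogenic list, had 10 peaks and 3 of replicate 2 in the span, and 0 of the 10 were overlapped. Neurod1, Barhl2, Nfib and Reln, the other list genes with a cluster, had 6 or 7 peaks each, of which 0 were overlapped.

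Of the 20 neural transcription factors 5 had a cluster: Pou3f3 with 17 peaks, Neurod2, a neuronal bHLH factor, with 10, Neurod1 and Myt1l with 7 each, and Sox2, a factor of neural stem cells, with 6. Replicate 2 overlapped 1 of these 47 peaks. Of 15 neuron genes 2 had one, Rbfox3, the gene of the marker NeuN, with 27 peaks in 3 clusters and Grin1, an NMDA receptor subunit, with 7. One astrocyte gene of 15 had a cluster (Sox9, 9 peaks) and 0 of 15 oligodendrocyte genes. En2, a homeobox gene of the midbrain and cerebellum that is on no list and was chosen after its values were seen, had 13 peaks and 0 in replicate 2. Of the 16 neural list genes with a cluster, 16 had a promoter peak in replicate 1 and 7 in replicate 2. Zic4, Pax6, Neurod2, Cbln1 and Pou3f3 were among those without one in replicate 2, and Rbfox3, Nfix, Meis1, Sox2, Nfib, Reln and Sox9 had one.

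Muscle genes with a cluster were Mef2c, Mef2d, Nfix and Stac3. The Mef2c cluster, 62173 bp from the Mef2c TSS and around Mir9-2, had 16 peaks of height 1.25 to 13.2 and 0 in replicate 2. The Mef2d cluster overlaps the gene and had 13 peaks of 0.638 to 9.03, and 5 replicate 2 peaks of 0.418 to 2.17 that overlapped none of the 13. The tallest of the 5 is a promoter peak. It overlaps a replicate 1 promoter peak of height 15.1, which the rule had dropped, while the others reached 0.493. Stac3, a protein of excitation-contraction coupling in skeletal muscle, had 7 peaks of 2.35 to 15.5 next to it, of which replicate 2 overlapped 1 (height 3.48). None of 30 sarcomere genes, 15 muscle metabolism genes, 15 neuromuscular junction genes or 15 satellite cell genes had a cluster in replicate 1. The share over all genes was 2.38%, and 2.2% with clusters of replicate 2. At such a share a list of 15 or 30 genes can have 0, so these zeros are descriptions. With clusters of replicate 2, Ttn (titin) had 3, of 10, 3 and 3 low peaks, with tallest heights of 0.386, 0.354 and 0.364. In none of these spans did replicate 1 have a distal peak. Mybpc2, a fast myosin binding protein, had 1 of 15 peaks with 2 replicate 1 peaks in its span, Pygm, the muscle glycogen phosphorylase, 1 of 7 with 0, and Pax7 1 of 5 with 0. Their tallest heights were 1.59, 0.697 and 1.29, against a median of 1.48 over all replicate 2 peaks. Chrnd and Chrng were counted through the same cluster of 4 peaks, up to 0.364.

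Of 119 genes in 8 lists of other cells, 6 (5.04%) had a cluster, against 2.38% of all genes. Fibro-adipogenic, erythroid and lymphocyte lists had 1 gene each, Tcf4, Ank1 and Pax5. The macrophage list had 2 of 15 genes, Ptprc with 7 peaks and Cx3cr1 with 6, all without a replicate 2 overlap. Among tenocyte genes Scx, which lies inside Bop1, had a cluster 3761 bp from its TSS. It had 6 peaks, of which replicate 2 overlapped 5, and 8 replicate 2 peaks in the span. Of these 6 genes Tcf4, Ank1 and Scx had a promoter peak in both libraries, Pax5 in replicate 1 only, and Ptprc and Cx3cr1 in neither. Endothelial, mural, Schwann, Hox, cardiac, hepatocyte and keratinocyte lists had 0. Immediate-early genes had 2 of 15 (Fosb and Ier2), circadian genes 1 (Per1) and housekeeping genes 1 (Eef2). Genes with at least 3 clusters were Gse1 with 6, Zmiz1 with 4, and Lemd2, Clybl, Meis1, Rbfox3, Srcin1 and Bahcc1 with 3. Gm20388, a readthrough annotation of 4435 kb that contains Gse1, had 7.

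**Figure D4:**
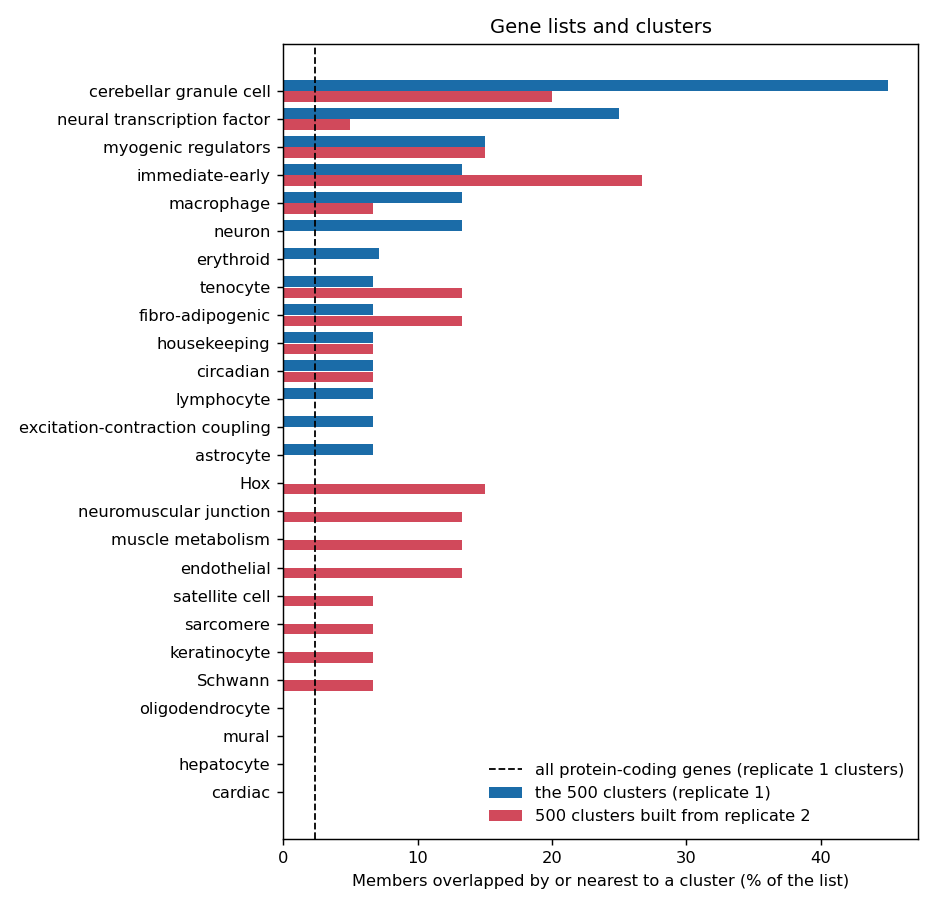
Share of each gene list (horizontal axis, %) with one of the 500 clusters of replicate 1 (blue bars) or with one of 500 clusters built from replicate 2 by the same rule (red bars); the dashed line is the 2.38% of all protein-coding genes for replicate 1. The granule cell list is at 45% in blue and 20% in red, and the sarcomere list at 0% and 6.67%.

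Replicate 2 had a peak in the span of 6 of the 21 clusters of neural list genes and 3 of the 4 of muscle list genes, but overlapped few of their peaks. In the neural clusters it overlapped 6 of 185 peaks (3.24%, 1.49 to 6.89), while other distal peaks of the same height mix were overlapped at 10.6%. In the muscle clusters it was 1 of 46 (2.17%, 0.385 to 11.3) against 22.8%. The part of replicate 2's lower peak number in these shares was not tested beyond the height mix.

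The DNA of cluster peaks was richer in G and C. Median GC content of the central 150 bp was 57.3%, against 53.3% for other distal peaks, and mean CpG number 4.25 against 2.87. Repeats marked in the reference took 8.22% and 8.79% of the window. The letters GGGCGG (either strand) were in 13.0% of cluster peaks (12.0 to 14.1), 6.52% of other distal peaks and 6.83% of all. In cluster peaks that replicate 2 overlapped the share was 21.9%, and in the rest 11.8%. The Ets letters CCGGAAG were in 1.94% (1.56 to 2.41) against 1.06%, with 1.1% over all.

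Of the 24 motifs 8 had a higher and 16 a lower share in cluster peaks than in other distal peaks, and the intervals were apart for the pair above and for 5 lower ones, the letters of nuclear factor I, the CAGATG E-box and those of Fos and Jun, Sox and homeodomain factors. The nuclear factor I letters TTGGCA was in 19.2% (18.1 to 20.5) against 25.7% of other peaks (25.4% of all), and the E-box CAGATG in 21.2% against 24.5% (24.4% of all). The E-box CAGCTG, which MyoD and other bHLH factors read, was in 17.3% against 18.1% (18% of all), with overlapping intervals. The Fos and Jun letters TGANTCA were in 3.39% against 4.53% (4.48% of all), the Sox letters ACAATG in 4.53% against 6.02% (5.95% of all), and TAATTA in 1.50% against 2.34% (2.3% of all). The CTCF core, 12 letters long, was in 1.58% against 2.08% (2.05% of all), with 4.94% of the overlapped cluster peaks and 1.08% of the rest. Against other distal peaks of the same height mix the ratio of shares changed side for 1 of the 24 motifs, Nrf1, from 1.26 to 0.90, at 4 cluster peaks (0.078% of all distal peaks hold it).

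**Figure D5:**
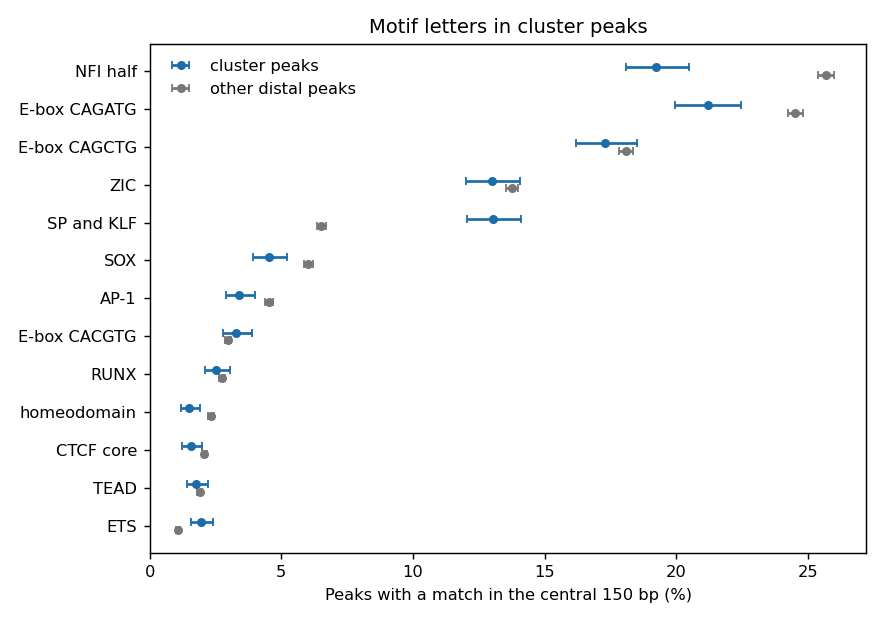
Share of peaks (horizontal axis, %) with a match to each motif in the central 150 bp, on either strand, for cluster peaks (blue) and other distal peaks (grey), with Wilson 95% intervals for counting error; motifs found in at least 1% of other distal peaks are drawn. Sp and Klf letters stand at 13.0% against 6.52%, and the nuclear factor I letters at 19.2% against 25.7%.

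Footprints, the short protected stretches within peaks that the authors listed, were less frequent in cluster peaks. In replicate 1, 86.1% of cluster peaks held a footprint, against 93.7% of other distal peaks (93.4% of all), at 13.9 and 15.3 footprints per kb of peak. The gap lay in low peaks: in the lowest 25% by height 49.7% of cluster peaks and 82.5% of others held one, and in the tallest 10% it was 100% and 99.97%. A replicate 2 footprint lay in 17.0% of cluster peaks and 13.3% of others (13.5% of all). Heights and footprints of replicate 1 come from the same library, and the part of depth in the footprint calls was not tested.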

How the data were processed

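DNase-seq was measured in 2 libraries of 1 group. The authors deposited, per library and on mm10 (GRCm38), 2 peak lists whose value is a signal, the peak height on a scale normalized to read depth, per the file headers. The authors also deposited intervals with an FDR, a p-value corrected by them, and footprints whose deposited score is the same for every footprint. Per the notes among the deposited files, each list came from the filtered alignments of 1 library. No aligner, caller or threshold is named (not given in the sources used here). Read depth behind each value is unknown, as the lists hold no counts, so depth is given as peak numbers.

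The shorter list of each library was used. Peaks were joined, tested against TSSs of GENCODE M21 and stitched as described above; a promoter peak lies within 1 kb of a protein-coding TSS. The gene of a cluster is the protein-coding gene covering most of its span, otherwise that of the nearest TSS. Shares carry Wilson 95% intervals, and no test was made. Motifs were matched as exact letters, N being any base, on both strands of the central 150 bp. Height classes are bounded at percentiles 25, 50, 75 and 90 of all distal peaks. Named genes are those of the 25 highest-ranked clusters, the 10 with the most replicate 2 peaks, up to 4 members of each of 26 lists with the most cluster peaks, genes with at least 3 clusters, and those beside the limit of 500; other genes, such as further members of a list, Bop1 beside Scx and those with microRNA genes, were chosen after their values were seen. The clusters, lists and motifs were chosen with earlier results of these data known. Joining, stitching and overlaps were tested on simulated data against bedtools 2.31.1. Work was done in Python 3.11.15 with pandas 2.3.3, numpy 2.4.6, pysam 0.24.0, scipy 1.17.1, matplotlib 3.10.9 and samtools 1.23.1. Alternatives are given at the end.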

Additional observations from a re-analysis of the deposited data

How the results depend on the processing

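No paired analysis was possible because the series has 1 group. The share of cluster peaks overlapped by replicate 2, 12.7%, was 21.3% with the longer replicate 2 list and 24.3% with its FDR intervals (16.8% and 18.9% for other distal peaks), and 11.6% when the overlap had to cover 50% of either peak. It was 7.97% with clusters from the longer replicate 1 list, 26.4% with the tallest replicate 1 peaks, as many as replicate 2 has, 10.6% with stitching at 2.5 times the distance, 11.6% with a promoter distance of 2.5 kb, 11.2% with TSSs of all genes, 13.9% with 250 clusters, 11.6% with 1000 and 19.0% when clusters were ranked by summed height. Without the 10 clusters with the most overlapped peaks, an alternative chosen after seeing the data, it was 10.8%.

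The share of clusters with a replicate 2 peak, 46.6%, was 66.4% and 70.6% with the longer list and the FDR intervals, 39.2% and 61.8% with stitching at 2.5 kb and at that longer distance, 39.4% with a promoter distance of 2.5 kb, 40.8% with TSSs of all genes, 53.2% and 41.1% with 250 and 1000 clusters, and 58.0% by summed height. The share of genes with a cluster, 2.38%, was 2.18% and 2.93% with these stitching distances, 1.22% and 4.50% with 250 and 1000 clusters, and 2.03% when the nearest TSS alone named the gene. Granule cell genes with a cluster, 9, were 14 with the longer stitching distance and 5 with 250 clusters, where neural list genes, 16, were 9. They were 6 with a promoter distance of 2.5 kb, 6 with TSSs of all genes and 6 by summed height. In the same order neural list genes were 11, 11 and 12, and muscle list genes, 4, were 3, 4 and 4. Without replicate 1, that is with clusters of replicate 2, granule cell, neural and muscle genes were 4, 5 and 10, against 9, 16 and 4, and the share of genes was 2.20%. Fewer or more clusters, or longer or shorter lists, change these values by construction; for the others the cause was not tested. Of 70 values for these results under alternatives 38 stayed within the counting interval or 1.5 times the count. Read depth is not known for certain, so a cluster without a peak in the stricter replicate 2 list is not shown to lack open chromatin.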
